A study of Mus with 2 samples.

Results

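The genes described here take up arginine, cleave it, turn it into nitric oxide or carry its nitrogen into polyamines. They were picked by symbol for their role, with earlier results of these data known, as Slc7a1, Slc7a2, Arg1, Arg2, Nos2, Ass1, Asl, Odc1, Azin1 and Sat1, which are 10 of the 20060 genes that could be named on the array. Together they had 15 probes, of which 14 probes from 9 genes were well above background, while that of Arg2 stayed near background throughout. The samples were bone marrow derived macrophages (BMDMs), which are macrophages grown from marrow cells, here from 10-week-old male C57BL6 mice (C57BL6/J in the growth protocol) cultured for 7 d with 10 ng/mL of M-CSF. Both cultures were then kept under M2 conditions, that is with 10 ng/mL of IL-4, for 24 hr, one with DMSO as the vehicle and the other with 10 µM of GW4064 in DMSO. GW4064 is a synthetic agonist of the farnesoid X receptor (FXR), a nuclear receptor for bile acids. The study asked whether FXR activation favors M2 polarization, and Arg1 was among the M2 genes that it followed. Each condition was measured on 1 single-color Agilent array. The labels do not say how many mice or cultures stand behind each array, and although the title, source name and treatment field of the treated sample name GW4064, its description field speaks of DMSO.

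Arginine enters macrophages mainly through the cationic amino acid transporters encoded by Slc7a1 and Slc7a2. Inside the cell it is the substrate of competing enzymes. Arginases split it into urea and ornithine, whereas inducible nitric oxide synthase, encoded by Nos2, oxidizes it to nitric oxide and citrulline, and citrulline can be rebuilt into arginine by the enzymes encoded by Ass1 and Asl. Ornithine is converted by ornithine decarboxylase (Odc1) to putrescine, the precursor of spermidine and spermine. In mouse macrophages IL-4 induces Arg1, and bacterial products with interferon induce Nos2, so that the use of arginine is a classical marker of polarization.

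Values below are processed signals, which are intensities after subtraction of the background, and log2 differences are GW4064 minus DMSO after the 75th percentile of each array had been set equal. With 1 array per condition no test was possible, and differences are described by size with 2-fold as the threshold. Every member probe was printed once, so its own scatter is not known. Probes printed several times on these arrays gave a guide, since their copies had a median SD of the log2 difference of 0.071 at signals of 1000 or more (143 probes), 0.092 at 100 to 1000 (71 probes) and 0.17 below 100 (20 probes). The scanner software also states an error for each spot, which corresponded to between 0.20 and 0.28 on the log2 difference of a member. The software error was nearly a fixed share of the signal at bright member spots, so it is not a scatter measured for each spot. It was larger than the median SD of copies at each signal level. Neither guide covers the spread between cultures.

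Arg1, the cytosolic arginase of the urea cycle, rose with GW4064. Its signal was 4875 ± 487 (error stated by the software) with DMSO and 72297 ± 7230 with GW4064, a log2 difference of 3.82 or 14.2-fold. Arg1 was already far above background in the IL-4 culture with DMSO, so the difference came on top of a clear signal. Of the 21707 probes that exceeded background on both arrays, only 1 had a larger rise. The median pixel intensity of the same spot, less its local background, was 5576 with DMSO and 82537 with GW4064. No other spot within 300 µm differed 8-fold or more between the arrays, and the other spots within 5 rows and columns had a median log2 difference of -0.031. Over 11 other ways of processing the arrays, the value for Arg1 stayed between 3.64 and 3.83. Those that only filter or choose spots or probes could not change this single bright probe. The range thus came from the other scalings, the deposited table and normexp.

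Arg2 encodes the mitochondrial arginase. Its single probe read 4.51 with DMSO and 5.37 with GW4064, neither of them well above background, so no difference is given for it. Of the arginases, only Arg1 was thus measured, and whether Arg2 differed was not detectable at this signal.

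**Figure D1:**
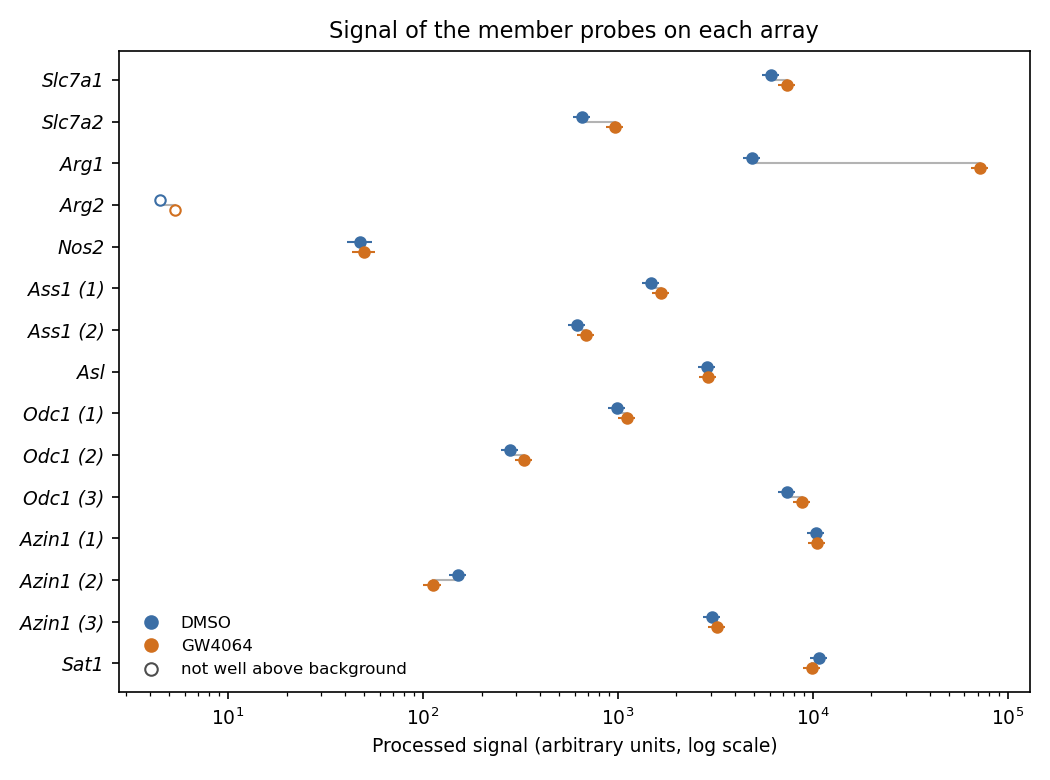
Processed signal (log scale) of each of the 15 member probes under each treatment, with bars for the error stated by the scanner software and hollow points, without bars, for readings not well above background. Numbers in brackets tell apart the probes of a gene, and the pair of points for Arg1 lies between 4875 and 72297 while the points of every other pair lie closer together.

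Both transporters read higher on the GW4064 array, by less than 2-fold. Slc7a2, the transporter known to be induced along with arginine-using enzymes in activated macrophages, had a signal of 653 ± 65.4 with DMSO and 965 ± 96.6 with GW4064. This gave a log2 difference of 0.50, with a software error of 0.20, and 3.37% of the probes measured on both arrays had a larger rise. After Arg1 it was the largest difference among the member genes, and it was higher in each of the 11 alternative settings, between 0.31 and 0.52. As for Arg1, settings that only filter or choose spots or probes could not change this value. Slc7a1, the widely expressed transporter, had signals of 6074 and 7391 and a log2 difference of 0.22, with a software error of 0.20. The Slc7a1 spot had 3 others within 300 µm that differed 8-fold or more, which counts as an area of discordant spots (2 or more such neighbors), and its value was 0.030 when the spike-in control RNA was set equal in place of the 75th percentile.

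In the nitric oxide branch Ass1 and Asl differed little, while Nos2 was too dim for a small difference to be judged. Nos2 was dim on both arrays, at 47.8 ± 6.84 (DMSO) and 50.1 ± 6.75 (GW4064), with a log2 difference of 0.00097 against a software error of 0.28. Its value lay between -0.19 and 0.053 over the other settings. Ass1, which makes argininosuccinate from citrulline, was read by a pair of probes that rested on the same transcript (NM_007494). Their signals were 1472 and 618 with DMSO and 1665 and 683 with GW4064, and their log2 differences of 0.11 and 0.078 lay within the software error. The dimmer of these spots lay in an area of discordant spots. Asl, which releases arginine from argininosuccinate, had signals of 2873 and 2904 and a log2 difference of -0.050. Set against Nos2 on the same arrays, the difference of Arg1 was larger by 3.82 on the log2 scale, a gap that does not depend on a constant used to scale the arrays. Because the value of the dim Nos2 probe was near 0, this gap is nearly the difference of Arg1 itself. The difference of Arg1 also exceeded that of Slc7a2, its nearest neighbor in the order, by 3.33.

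The polyamine genes did not share 1 direction. The 3 probes for Odc1, the enzyme that commits ornithine to polyamines, had log2 differences of 0.11, 0.18 and 0.19, each within the software error of 0.20 to 0.21. The spot with 0.11 lay in an area of discordant spots. The brightest reading of this gene was 7393 with DMSO and 8831 with GW4064, and the mean over the probes was 0.16, or -0.028 with the spike-in RNA set equal. All 3 Odc1 probes thus gave the same sign under the 75th percentile, by a margin that the choice of scaling removed.

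The 3 probes for Azin1 disagreed. This gene encodes antizyme inhibitor 1, which frees ornithine decarboxylase from antizyme. The brightest probe read 10431 with DMSO and 10477 with GW4064, a log2 difference of -0.059, and the next read 3051 and 3221, a difference of 0.012. The dimmest read 152 ± 15.7 and 112 ± 11.8, a difference of -0.50 that exceeded its software error of 0.21. Its spot had 6 others within 300 µm that differed 8-fold or more, whereas the other Azin1 spots had 0, and without spots in such areas the mean for the gene was -0.023 in place of -0.18. The part of these neighbors in this reading was not tested. Among the 3240 genes with several probes well above background on both arrays, 5.40% had probes more than 0.50 apart, and Azin1 was one of them.

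Sat1 encodes the acetyltransferase that marks spermidine and spermine for export or breakdown. Its signal was 10749 ± 1075 with DMSO and 9878 ± 988 with GW4064, a log2 difference of -0.19 with a software error of 0.20. The spot lay in an area of discordant spots, with 4 others within 300 µm, and the value was between -0.38 and -0.19 over the 10 settings that kept it.

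**Figure D2:**
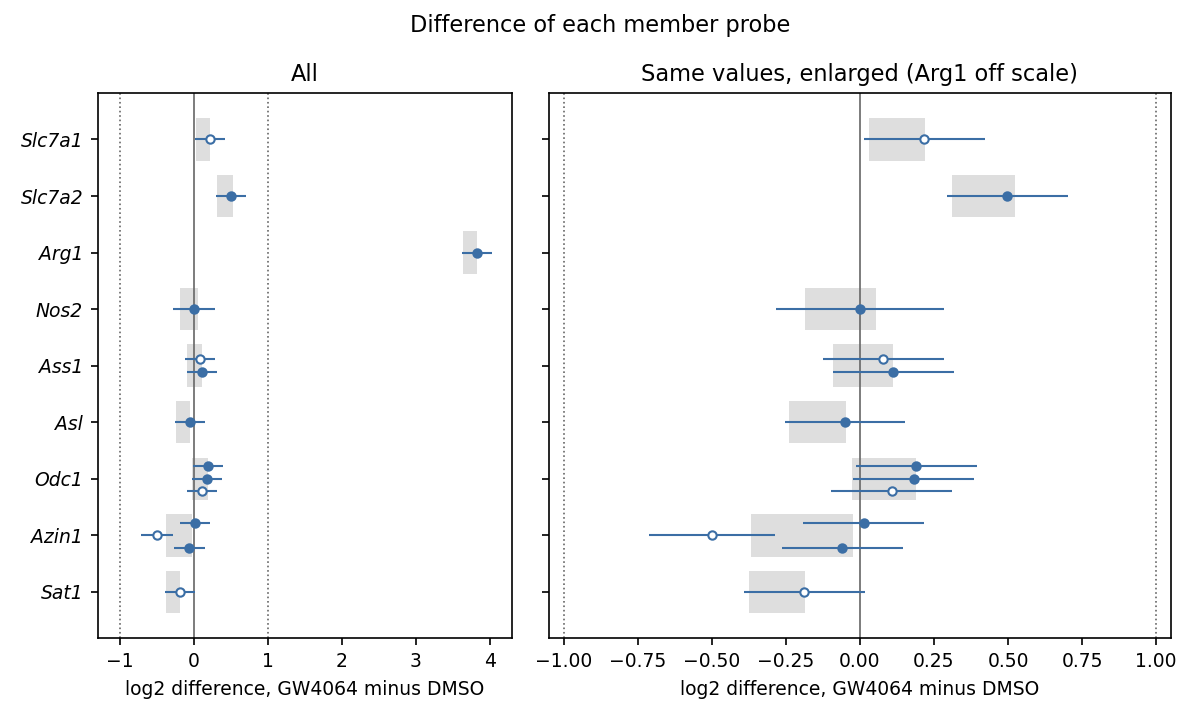
The log2 difference (GW4064 minus DMSO) of each measured member probe, with bars for the software error, hollow points for spots in areas of discordant spots and grey bands for the range of the gene's value over the other settings; dotted lines mark 2-fold. The left panel shows Arg1 at 3.82, and the right panel enlarges the others, which lie between -0.50 and 0.50.

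Of the 9 genes measured, 1 (Arg1) passed 2-fold upward and 0 passed it downward. Over all 13533 genes measured, 2.04% passed 2-fold upward and 2.71% downward, and over all 23749 probes the shares were 2.15% and 2.77%. Of the members, 6 were above 0 and 3 below, with a median of 0.095, against 51.6% above 0 and a median of 0.0069 over all genes. Without Arg1, the 8 remaining genes lay between -0.19 and 0.50 with a median of 0.048. Scaling decided the sign of several of these small values. When the spike-in RNA was set equal, the median over all genes moved to -0.18 and that of the members to -0.093, and 3 of the members, namely Arg1, Slc7a2 and Slc7a1, stayed above 0. Of all genes 18.2% were above 0 under that scaling. Arg1 was 2-fold or more higher under every setting tried.

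**Figure D3:**
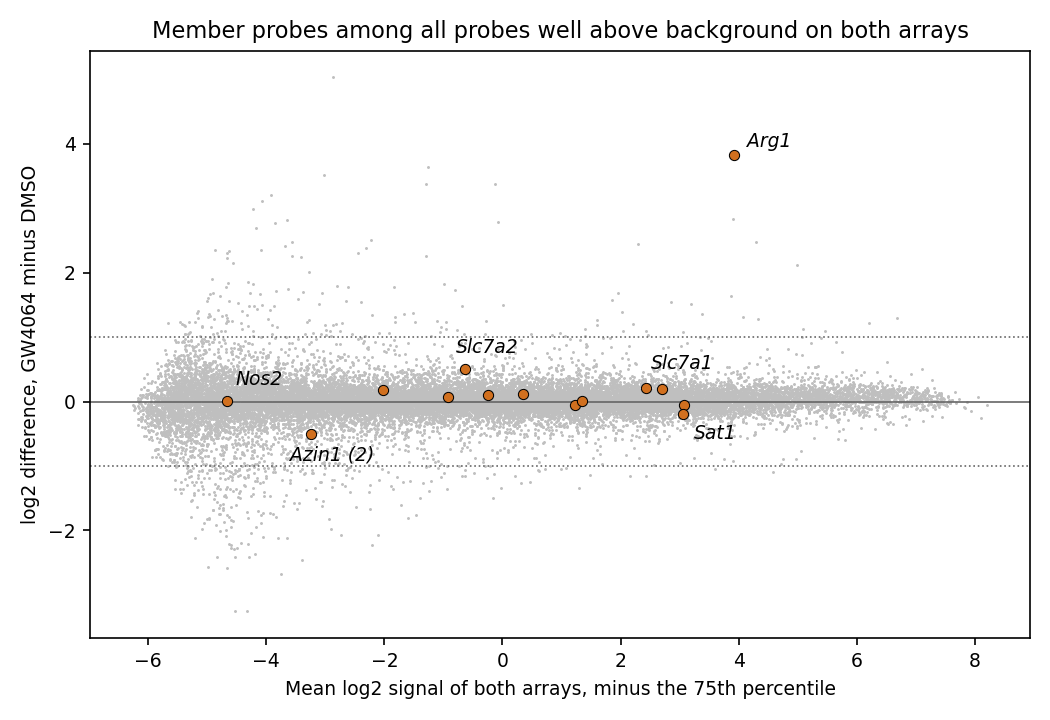
The log2 difference (GW4064 minus DMSO) of all 21707 probes that exceeded background on both arrays (grey) against their mean log2 signal relative to the 75th percentile, with the 14 member probes in orange; dotted lines mark 2-fold. Arg1 stands at 3.82 above a bright mean signal, where few probes pass 2-fold, and the other member probes lie within the grey band.

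A wider list of 54 symbols from arginine transport, nitric oxide, ornithine, proline and polyamine metabolism was examined around the members. Of these, 51 had a matched probe and 44 genes exceeded background on 1 array or both. Of the 42 genes with a measured difference, 0 reached 2-fold in either direction, and for Ddah1 and Gchfr, which exceeded background under 1 treatment only, a bound below 2-fold was obtained that leaves their true size unknown. Over all 44 genes, bounds included, the median log2 difference was 0.017, with 25 genes above 0 and 19 below. The share above 0 over all genes was 51.6%. Of the 42 genes without a bound, 24 were above 0 and 18 below. With the spike-in RNA set equal the median over the 44 genes was -0.17, with 11 above 0 and 32 below, against 18.2% above 0 over all genes.

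Gatm had the largest measured difference of this list, the size of Ddah1 being known only as a bound. It encodes glycine amidinotransferase, which takes the amidino group of arginine for creatine synthesis and leaves ornithine. Its signal was 3941 with DMSO and 7502 with GW4064, a log2 difference of 0.86, or 1.82-fold, and 1.19% of the probes measured on both arrays had a larger rise. The following enzyme of creatine synthesis, encoded by Gamt, had the opposite sign, with -0.18 and -0.25 on its probes. Gatm alone of the list passed 1.5-fold upward, as did 4.39% of all genes, and it kept its sign in all 11 other settings, between 0.68 and 0.87. Settings that only filter or choose spots or probes could not change its single probe. Among the other genes of ornithine and proline, Oat, which turns ornithine toward proline and glutamate, had 0.23, and Aldh18a1, Pycrl, Prodh and Aldh4a1 lay between -0.054 and 0.081. The only Aldh4a1 spot lay in an area of discordant spots. The genes of the urea cycle proper outside the members, Otc, Cps1 and Nags, were not measured because their probes stayed near background.

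Around nitric oxide, the enzymes that remove dimethylarginine, an endogenous inhibitor of nitric oxide synthases, had opposite signs. Ddah2 had signals of 797 and 1222 and a log2 difference of 0.55. Ddah1 was near background, and both of its probes were well above it with DMSO alone, at signals of 25.4 and 16.9, so that they were at least 1.76-fold and at least 1.17-fold lower with GW4064. Since these are bounds, a difference of 2-fold or more in Ddah1 is possible. After normexp the log2 value of Ddah1 was -0.24 in place of -0.52, and that of Ddah2 was 0.45. Nos3, the endothelial synthase, had 0.38 ± 0.22 (SD over 10 copies) on a dim probe and 0.31 on another. Of those copies, 2 lay in areas of discordant spots. The mean of the Nos3 probes was 0.16 with the spike-in RNA set equal and 0.15 after normexp, in place of 0.35. The genes for the synthesis and recycling of the cofactor tetrahydrobiopterin lay close to 0, with Gch1 at -0.14, Pts at -0.11, Spr at 0.20 and Qdpr at 0.0034. Nosip had -0.011, Gchfr exceeded background with GW4064 alone, with signals of 20.7 and 23.1 and a bound that was 0 with the spike-in RNA set equal and after normexp, so that no direction is given, and Nos1 was not well above background.

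Among the other transporters, 5 of 7 genes were below 0, and those 5 were below 0 in each setting that measured them. Settings that only filter or choose spots or probes could not change those read by a single probe. Over all genes 6521 of 13533 were below 0. With the spike-in RNA set equal all 7 of these transporters were below 0, as were 10966 of the 13533 genes. Slc3a2, the heavy chain that pairs with Slc7a6 and Slc7a7 to exchange arginine for neutral amino acids, had signals of 38845 and 31743 and a log2 difference of -0.36. Slc7a7 had -0.11 and Slc7a6 had 0.18, the latter -0.0044 with the spike-in RNA set equal. The ornithine carrier of mitochondria (Slc25a15) had -0.17, the basic amino acid carrier Slc25a29 had -0.19, the lysosomal arginine sensor Slc38a9 had -0.22, and Slc7a3 had 0.0029. Slc25a15, Slc25a29 and Slc7a3 were dim, with DMSO signals of 33.4, 65.3 and 53.7, and lay within software errors of 0.34, 0.25 and 0.27. Slc7a7 and Slc7a6 also lay within theirs, of 0.20 and 0.21. Slc3a2 and Slc7a7 thus had the opposite sign to Slc7a1 and Slc7a2 under both scalings, with no value reaching 2-fold.

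In polyamine synthesis the largest value was that of Srm, spermidine synthase, with log2 differences of 0.30 and 0.39 on its probes from signals of 7591 and 4965 with DMSO. Sms, spermine synthase, had 0.10. Probes for S-adenosylmethionine decarboxylase, which supplies the aminopropyl groups, were matched to Amd2, a near-identical copy of Amd1 that they may not separate, and had a mean of -0.093. The antizymes, which send ornithine decarboxylase to the proteasome, lay near 0, with Oaz1 at 0.026 and Oaz2 at -0.022, while Azin2, a relative of Azin1, had 0.18. Agmat, Mtap, Mat2a and Mat2b lay between -0.10 and 0.019, and Oaz3 was not well above background. The only Mtap spot, 1 Mat2a spot and 1 Azin2 spot lay in areas of discordant spots.

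In polyamine breakdown, transport and use, 8 of 10 genes were above 0, of which 5 were still above 0 with the spike-in RNA set equal. Over all genes the shares above 0 were 51.6% and 18.2% under these scalings. With the spike-in RNA set equal those 5 values lay only between 0.011 and 0.043, below the median SD of copies at each signal level. The median over the 10 genes was then -0.0076. Smox, which oxidizes spermine, had 0.23, Sat2 had 0.21, and Paox, which oxidizes acetylated polyamines, had -0.24. Spermidine is also consumed to make hypusine, an amino acid of the translation factor eIF5A. Dhps and Dohh, the enzymes of that modification, had 0.23 and 0.16, Eif5a had 0.20 and Eif5a2 had -0.27. The only Eif5a spot, 1 Dhps spot and 1 Smox spot lay in areas of discordant spots. The exporters and carriers Atp13a2, Atp13a3 and Slc18b1 had 0.074, 0.13 and 0.20, and Slc3a1 was not well above background.

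**Figure D4:**
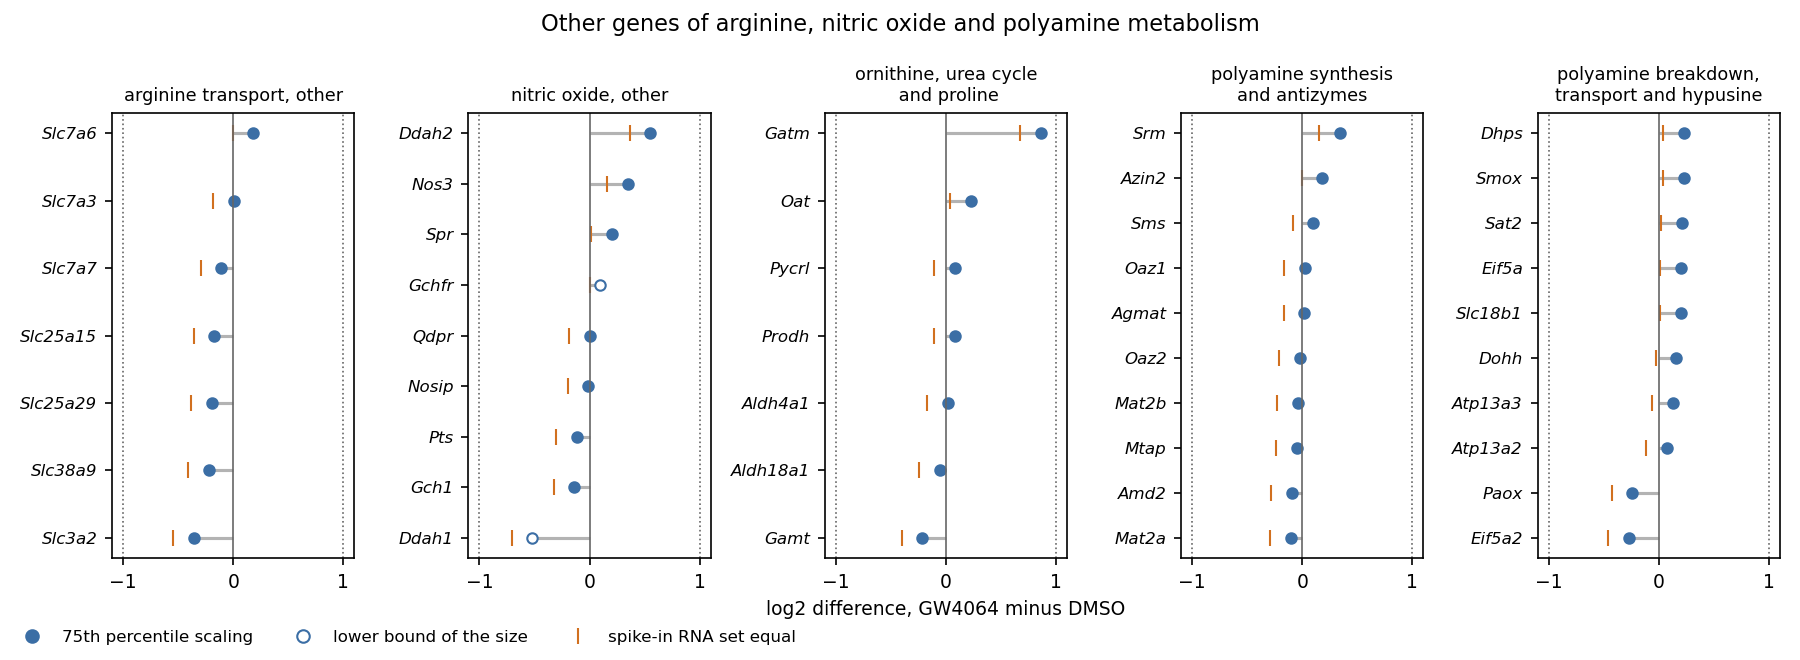
The log2 difference (GW4064 minus DMSO) of all but 1 of the 44 measured genes of the wider list, in 5 groups by role, as the mean over the probes of each gene; hollow points are lower bounds of the size, orange ticks the values with the spike-in RNA set equal and dotted lines 2-fold. Gatm is the highest at 0.86 and Ddah1 the lowest at -0.52, where the hollow point is a bound and the true size may be larger; no filled point reaches a dotted line.

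The labelled cell type was checked against markers. All 9 macrophage markers with a matched probe, among them Csf1r, Adgre1, Itgam and Lyz2, were well above background on both arrays, with log2 differences between -0.25 and 0.14. Among markers of other cells, most of those of neutrophils and stromal cells had values below 0. Of the neutrophil markers 7 of 8 measured were below 0, with a median of -0.62 and a summed signal of 13889 with DMSO and 8999 with GW4064, and of the stromal markers 6 of 7 were below 0, with a median of -0.72 and a summed signal of 14350 and 8111. Over all genes 6521 of 13533 were below 0. The largest parts of these sums were S100a9 (8136 and 4614) and Col1a2 (10058 and 5296). Retnlg and Lum stayed near background. Of the dendritic cell markers 2 of 5 were above 0, and their summed signals of 36841 and 37522 were almost wholly those of 1 Siglech probe (36736 and 37360), while the other Siglech probe stayed near background. Flt3 was at least 4.94-fold higher on 1 probe, with 3 other spots within 300 µm that differed 8-fold or more, its log2 value was 0.72 in place of 2.31 after normexp, and its other probe stayed near background. Ms4a1 and Cd3e were the only lymphocyte markers measured, out of 6, and with values of -1.31, a bound since Ms4a1 exceeded background with DMSO alone (-0.57 after normexp), and 0.18, and with summed signals of 245 and 256, and Prg2, at -1.47, was the only mast cell, basophil or eosinophil marker measured, from a signal of 132 to 49.9. The spots of Ltf, Col1a1, Prtn3 and Prg2 also lay in areas of discordant spots, and Prg2 was not measured once such areas were left out. So did 1 of 3 Csf1r spots, 1 of 2 Adgre1 spots, 1 of 2 Zbtb46 spots and 2 of 10 Pdgfra spots. Prtn3 and that Zbtb46 probe exceeded background with GW4064 alone, so their values are bounds. In such bulk samples fewer cells of a type and less RNA per cell cannot be told apart, and the part of the markers of other cells in the values of the member genes was not tested.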

How the data were processed

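Per array, the authors deposited one scanner file made with Agilent Feature Extraction 10.7.1.1, in which the processed signal is an intensity per spot with background subtracted and trends within the array removed, without scaling between arrays. A log2 table of the same arrays was deposited as well, whose probe-wise centring is not given in the sources used here; for probes measured on both arrays its differences differed from those computed here by at most 0.00222. Other columns give marks for spots (the authors' files, unit other).

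The log2 signal minus the 75th percentile over 43020 non-control spots (1209 with DMSO and 1265 with GW4064) was computed. Spots marked as non-uniform or outliers were left out, no spot was saturated, and spots of a probe were averaged, leaving 39200 probes, of which 57.4% and 58.5% were well above background. Where only 1 array had a probe well above background, the dim reading was replaced by the lowest signal well above background (15.7 with DMSO, 15.1 with GW4064) unless its own was higher, which gives "at least" folds. A gene is the mean of its probes measured on at least 1 array. Symbols came from RefSeq accessions of GRCm38.p6 without versions, which matched 26445 probes; coordinates are left out because the array was designed on another build. Areas of discordant spots are spots with 2 or more others that differed 8-fold or more within 300 µm (16.5% of spots). A local median is that of log2 differences within 5 rows and columns.

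Members and gene lists were chosen with earlier results of these data known. All members and all measured genes of the wider list are named, except 1 gene of the wider list that enters its counts and is not reported here. The 12 alternatives were quantile, median, loess (span 0.3) and spike-in scaling, the deposited table, marked spots kept, other filters on dim probes, normexp (offset 50) on median intensities, areas of discordant spots left out, the brightest probe of a gene, and a threshold of 1.5-fold, of which 11 give a value for a gene. Calculations were tested on simulated data. The tools were R 4.3.3 with limma 3.58.1 for normexp, and Python 3.11.15 with pandas 2.3.3, numpy 2.4.6, statsmodels 0.14.6 for loess, scipy 1.17.1 and matplotlib 3.10.9. The other experiments of the study were not analysed here.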

Additional observations from a re-analysis of the deposited data

How the results depend on the processing

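No paired analysis was possible because DMSO and GW4064 were each hybridized only once. The count of member genes 2-fold or more higher (1, Arg1) and lower (0) was the same under all 12 alternatives. The median of the members, 0.095, was -0.093 with the spike-in RNA set equal. Of the wider list 0 genes were 2-fold or more higher, against 1 without a filter on dim probes (Nos1, not well above background on either array) and 1 at a threshold of 1.5-fold (Gatm). Of all probes 510 were higher and 659 lower by 2-fold, and with the spike-in RNA set equal 380 and 901. With only probes well above background on both arrays these were 178 and 278, without a filter 1637 and 1664, after normexp 112 and 120, without areas of discordant spots 277 and 338, and at 1.5-fold 1117 and 1318. Of 97 values of single members under the alternatives, 85 moved by less than the median SD over copies of 0.077 and 12 moved by more, 9 of these with the spike-in RNA set equal. Many of the 85 could not move, because alternatives that only filter or choose spots or probes left most member probes unchanged. Setting the spike-in RNA equal shifts every probe measured on both arrays by the same constant, 0.19. Each of the 9 genes measured therefore had to move by more. Of 479 values of the wider list 423 moved by less and 56 by more, 44 of these with the spike-in RNA set equal. The same limit holds for the 423, and the same constant shift holds for the 44, apart from bounded values. Arg1, the only gene of the members and the wider list with a measured difference past 2-fold, kept its sign throughout, while Ddah1 was only bounded. Signal over background limits Arg2 and Nos2 most, and having 1 array per condition limits the precision throughout.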
